A study of Caenorhabditis elegans with 6 samples.

Results

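The heterochronic genes lin-14, lin-28, lin-29, lin-41, lin-46 and hbl-1 of Caenorhabditis elegans set the order of developmental programmes from larva to adult. They were taken by gene symbol from the platform table, which gives each of them 1 probe set (a group of array probes summarised as 1 value), so 6 probe sets of the 26192 that carry a gene are described. All 6 arrays were used. They held total RNA of whole hermaphrodites of the wild-type strain N2, in 2 groups of 3 arrays. Worms of both groups were synchronised by bleaching, grown on plates with Escherichia coli OP50 for 48 h to the L4 larval stage, and then moved for 24 h at 20 °C into 50% M9, a salt buffer. Control worms had buffer alone. Exposed worms had 500 µg/mL BSA-SPIONs in the buffer, which are superparamagnetic iron oxide nanoparticles covered by a monolayer of bovine serum albumin. No group had albumin or uncoated particles alone, so the parts of the iron oxide and of the albumin cannot be told apart. The labels give L4 as the stage and do not give the stage reached at the end of the 24 h in buffer. They also do not say whether the replicates were separate cultures, so p-values cover the spread of these 3 samples per group alone, and that spread may be technical.

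In this pathway, regulators that hold cells in an early larval programme are switched off in sequence, mostly by microRNAs, until the adult programme of the skin can begin. LIN-14, a nuclear transcription factor, and LIN-28, an RNA-binding protein, act early and are repressed by the microRNA lin-4. LIN-28 also blocks the maturation of the microRNA let-7, and HBL-1, a zinc finger transcription factor related to Hunchback of Drosophila, is repressed by relatives of let-7. LIN-46, related to the scaffold protein gephyrin of mammals, acts against HBL-1. At the end of larval life let-7 represses lin-41, whose protein (of the TRIM-NHL family) blocks translation of lin-29 mRNA. LIN-29, a zinc finger transcription factor, then ends the divisions of the seam cells of the skin and turns on adult cuticle genes. Several of these genes are also used outside the skin: lin-14 acts in neurons and lin-41 in oocytes.

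The lin-14 transcript was lower in exposed worms, and it was the 1 gene of the 6 that passed the test. The values are log2 expression values, on which a difference of 1 is a factor of 2. A gene passed when the adjusted p of limma, a linear model fitted over all 26192 probe sets, was under 0.05. By this rule 1 of the 6 genes was lower and 0 were higher, against 2.6% of all probe sets that were lower and 1.06% that were higher (3.66% in either direction). At an unadjusted p under 0.05, 2 were lower (lin-14 and lin-28) and 1 was higher (lin-41), where 12.4% of all probe sets were lower and 10.1% higher (22.5% in all). The 3 exposed arrays lay below all 3 controls for lin-14 and lin-28 and above them for 0 of the 6 genes. Among all probe sets, 13.5% were separated downwards and 14.6% upwards, 28.2% in all. The log2 change was below 0 for 5 of the 6 genes and for 44.7% of all probe sets. Its median over the 6 was -0.43, and over all probe sets it was 0.05.

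Taken over probe sets (no independent replicates), arrays of one group correlated at 0.963 to 0.988 and arrays of different groups at 0.934 to 0.959. Exposed arrays had lower medians (3.70 to 3.89) than controls (3.97 to 3.98). When the arrays were shifted to equal medians, the median change of all probe sets moved from 0.05 to 0.27, and the calls over all probe sets moved from 278 higher and 681 lower to 593 higher and 381 lower. Yolk genes, which adult hermaphrodites transcribe, were read for stage. For vit-2 the values were 12.04 to 12.54 on the 6 arrays. For vit-6 they were 9.94, 10.22 and 11.46 in controls and 11.86, 11.26 and 11.31 in exposed arrays (log2 change 0.94, adjusted p = 0.224, limma). For vit-5 the log2 change was -0.44 (adjusted p = 0.438, limma), with control 3 highest at 12.10. Whether the groups matched in stage was not tested.

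Controls 1 to 3 read 9.31, 9.36 and 8.57 for lin-14, while exposed 1 to 3 read 6.96, 7.76 and 6.93. Control 3 was the lowest control and exposed 2 the highest exposed array, and the groups were 0.81 apart at their nearest. The means were 9.08 ± 0.44 and 7.22 ± 0.47 (SD, n = 3). The log2 change was -1.86, with a 95% interval from -2.60 to -1.12, or 3.63-fold lower (adjusted p = 0.0287, limma). In absolute size this change was larger than that of 98.3% of all probe sets tested. The call was lost, with the direction kept, without control 1, control 2, exposed 1 or exposed 3, at adjusted p-values in limma of 0.113, 0.115, 0.108 and 0.0746, and the log2 change over all 16 alternative settings ran from -2.13 to -1.65.

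Lower lin-14 in whole worms can come from fewer cells that hold the transcript or from less of it per cell, and these cannot be told apart here. Neuron markers were lower too: 6 of 12 passed as lower and 0 as higher, beside 2.6% and 1.06% of all probe sets. Their median log2 change was -1.30, and their mean level ran from 7.25 to 7.95 in controls and from 6.34 to 6.38 in exposed arrays. Among them rgef-1, a neuronal guanine nucleotide exchange factor, read 5.740 to 6.054 in controls and 3.998 to 4.148 in exposed arrays (adjusted p = 0.0073, limma). It had the smallest p of the list. Of the 12 changes 11 were below 0. The exception was unc-119, at 0.15 with overlapping groups (adjusted p = 0.659, limma), and snb-1 was at -0.36 (adjusted p = 0.256, limma). Body wall muscle markers had a median of -1.11, with 3 of 10 lower (mup-2, tni-1 and dim-1) and 0 higher. Several of these calls were lost when single arrays were left out, as was that of lin-14. Of the 6 neuron calls 1 was kept without control 1, 1 without control 2, 0 without exposed 1 and 4 without exposed 2 or exposed 3, and of the 3 muscle calls 0 were kept without control 1, control 2, exposed 1 or exposed 3 and 2 without exposed 2. The neuron mean ordered the controls as lin-14 did, at 7.95, 7.85 and 7.25 in controls 2, 1 and 3. So did the body wall muscle mean, at 8.80, 8.56 and 8.03. Among probe sets at or above the median level, control 3 was the lowest control for 50.8%. The neuron mean differed little among the 3 exposed arrays, while lin-14 was higher in exposed 2 than in the other exposed arrays. Of the called neuron genes, ric-4, sng-1 and rgef-1 were also highest in exposed 2 among these arrays. The others, snt-1, unc-64 and rab-3, were highest in exposed 1. The part of the neuron markers in the lin-14 change was not tested. In RefSeq 5 small non-coding genes overlap lin-14, and 3 of them had a probe set of their own, named here for their place alone. T25C12.5 read 5.55 to 6.55 in controls and 3.53 to 4.53 in exposed arrays (log2 change -1.96, adjusted p = 0.0328, limma). The log2 changes of T25C12.6 and T25C12.7 were -0.62 and -0.69, with adjusted p-values of 0.139 and 0.0992 in limma, and their groups did not overlap. Probe positions and strands were not used here, so signal of these genes and of the lin-14 transcript cannot be told apart.

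**Figure D1:**
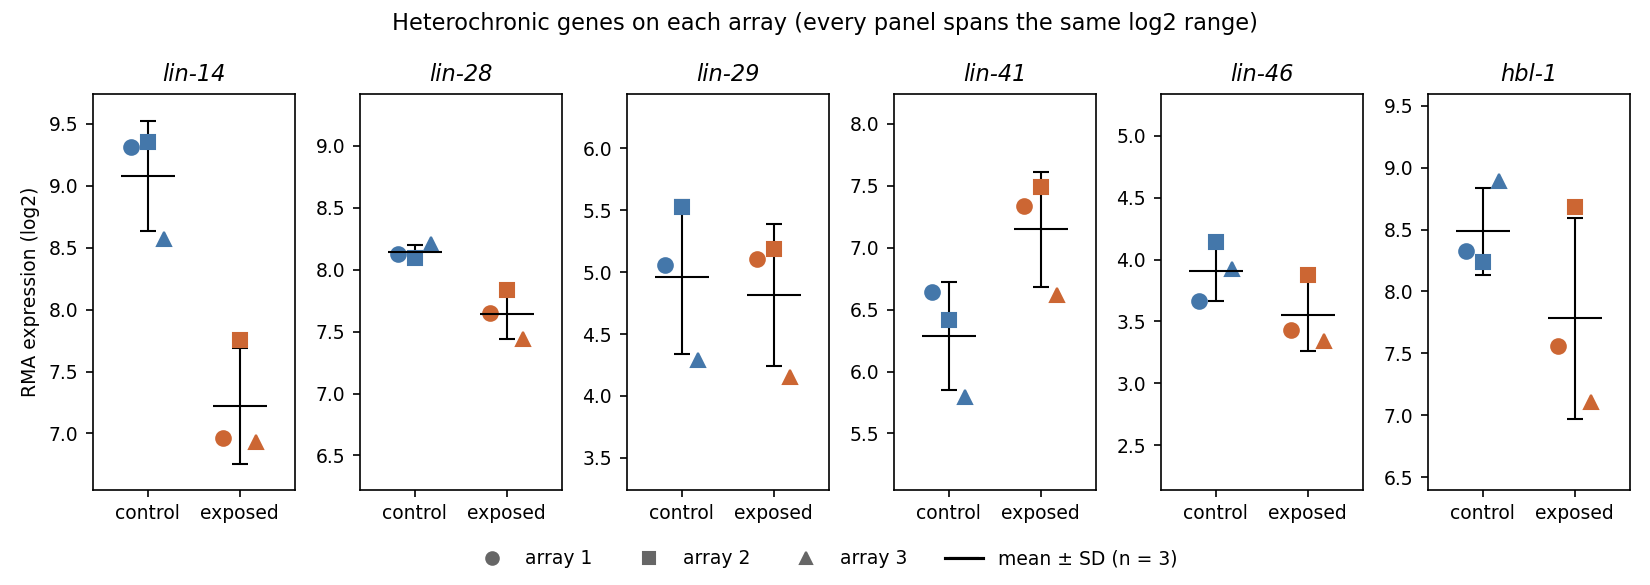
RMA expression (log2) of the 6 heterochronic genes on each array, control (blue) and exposed (orange), with the array number given by the marker and the group mean ± SD (n = 3) in black; each panel spans the same log2 range. For lin-14 and lin-28 the 3 exposed arrays lie below all controls, while for the other 4 genes the groups overlap, and exposed 2 is the highest exposed array in every panel.

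The lin-28 probe set read 8.12, 8.10 and 8.21 in controls and 7.65, 7.84 and 7.44 in exposed arrays. The groups did not overlap, and the controls lay within 0.11 of each other. The means were 8.14 ± 0.06 and 7.64 ± 0.20 (SD, n = 3), a log2 change of -0.50 with a 95% interval from -0.93 to -0.08, or 1.42-fold. At an adjusted p of 0.164 in limma it did not pass, and it passed under 0 of the 16 alternative settings (log2 changes -0.60 to -0.29). Its spread within groups was small: 12.7% of probe sets had a smaller residual SD. In RefSeq the protein-coding gene F02E9.1 overlaps lin-28. F02E9.1 was at 7.997 ± 0.298 and 7.232 ± 0.467 (SD, n = 3; adjusted p = 0.171, limma), also with separate groups.

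The next step of the pathway is hbl-1 with its antagonist lin-46. The hbl-1 probe set read 8.33, 8.24 and 8.89 in controls and 7.56, 8.68 and 7.11 in exposed arrays. Exposed 2 lay above controls 1 and 2, more than 1 log2 unit above the other exposed arrays, so the groups overlapped. The means were 8.48 ± 0.35 and 7.78 ± 0.81 (SD, n = 3), a log2 change of -0.70 with a 95% interval from -1.65 to 0.25 (adjusted p = 0.360, limma). Single arrays set the size of this value: it was -1.15 without exposed 2, -0.36 without exposed 3 and -0.16 without both arrays numbered 3, with adjusted p-values in limma of 0.100, 0.630 and 0.817. The spread within groups was larger than for 90.6% of probe sets.

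The lin-46 probe set read 3.66, 4.14 and 3.92 in controls and 3.43, 3.88 and 3.34 in exposed arrays. Exposed 2 lay above control 1, so the groups overlapped. The log2 change was -0.36 with a 95% interval from -0.88 to 0.17 (adjusted p = 0.391, limma). These values lie near the array medians, where RMA compresses differences, and the gene falls out when the dimmer part of the probe sets is left out. It was not called in any of the 15 alternatives that kept it.

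The late repressor lin-41 was the 1 gene of the 6 with a positive log2 change. It read 6.64, 6.42 and 5.80 in controls and 7.33, 7.49 and 6.62 in exposed arrays. The groups overlapped by exposed 3, which lay just under control 1, and the arrays numbered 3 were the lowest of both groups. The means were 6.29 ± 0.44 and 7.15 ± 0.47 (SD, n = 3), a log2 change of 0.86 with a 95% interval from 0.127 to 1.598, or 1.82-fold (adjusted p = 0.166, limma). It did not pass, and of the 16 alternatives it passed in 1, without both arrays numbered 3 (log2 change 0.88, adjusted p = 0.0470, limma).

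The mean of the germline markers put the 6 arrays in the same order as lin-41, and the mean of the oocyte markers did so but for exposed 1 and 2, which changed places. A low place of array 3 was common. Among probe sets at or above the median level, control 3 was the lowest control for 50.8% and exposed 3 the lowest exposed array for 50.1%. The neuron and body wall muscle means also had array 3 lowest in both groups. For the oocyte list of 12 genes the means of controls 1 to 3 were 8.16, 7.94 and 7.31, while those of exposed 1 to 3 were 8.75, 8.70 and 8.01, with a median log2 change of 0.85. The germline list of 12 genes had a median of 0.77, with control 3 lowest at 6.85 and exposed 3, at 7.76, the lowest exposed array. In neither list did a gene pass in limma. At an unadjusted p under 0.05, 6 oocyte and 7 germline genes were higher and 0 lower, beside 10.1% and 12.4% of all probe sets. The yolk receptor gene rme-2, with the largest rise of the oocyte list, read 6.98, 6.98 and 6.01 in controls and 7.93, 7.96 and 7.58 in exposed arrays (adjusted p = 0.0778, limma). Of the 12 oocyte changes 10 were above 0 and 2 below. Those 2 were perm-2 and perm-4, at -0.33 each (adjusted p = 0.378 and 0.396, limma). The part of oocyte RNA in the lin-41 values was not tested.

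The adult regulator lin-29 read 5.06, 5.53 and 4.29 in controls and 5.11, 5.18 and 4.16 in exposed arrays. The groups overlapped almost fully, and in each of them array 3 was lowest. Of probe sets at or above the median level, 50.8% had control 3 as the lowest control and 50.1% exposed 3 as the lowest exposed array. The means were 4.96 ± 0.62 and 4.81 ± 0.57 (SD, n = 3), a log2 change of -0.15 with a 95% interval from -1.06 to 0.77 (adjusted p = 0.861, limma), so a change of up to about 1 log2 unit downwards lies within the interval. The sign turned in 4 of the 16 alternatives. The platform table ties this probe set to lin-29 under 2 gene identifiers, 1 of which is in RefSeq. RefSeq lists 12 transcripts for the gene, which 1 probe set does not separate, and the gene hmg-12 and non-coding genes overlap it. The control mean of hmg-12 was 8.13 and its exposed mean 8.64 (adjusted p = 0.228, limma).

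The exposed arrays kept one order across the 6 genes: exposed 2 was highest and exposed 3 lowest in 6 of 6. Among all probe sets 19.3% had this order, and 25.1% of those at or above the median level. The mean of the other heterochronic regulators, read below, had it too, at 6.36, 6.57 and 6.13 in exposed 1, 2 and 3. So had the means of the microRNA machinery (7.38, 7.46 and 6.95) and of the germline list (8.35, 8.41 and 7.76). Those of the oocyte and LIN-41 target lists did not. The controls had no single order. Control 3 was the lowest control for lin-14, lin-29 and lin-41 and the highest for lin-28 and hbl-1. Among the exposed arrays the mean of the skin markers also had exposed 2 highest and exposed 3 lowest, while the mean of the molt markers had exposed 1 lowest. The seam and hypodermis list had a mean of 5.98 in exposed 2 against 5.66 and 5.32 in exposed 1 and 3, and 6.18 to 6.33 in controls. The lead of exposed 2 over exposed 1 rested mainly on the hedgehog-related gene wrt-2 (3.21, 6.70 and 2.44 in exposed 1, 2 and 3). Without it the means were 5.85, 5.92 and 5.54, in the same order. Exposed 2 was the highest exposed array for 7 and the lowest for 5 of the 14 genes. The larval molt list had its highest mean of all arrays in exposed 2 (6.41, against 5.82 and 5.91 in the other exposed arrays and 5.98 to 6.32 in controls), and exposed 2 was the highest exposed array for 7 and the lowest for 1 of the 12 genes. For the adult collagens exposed 2 had instead the lowest mean of the exposed arrays (4.98, against 5.27 and 5.14). The median log2 change was -0.56 for the skin list and 0.24 for the molt list, where 8 of 12 changes were above 0. Of the 14 skin and 12 molt genes 0 passed in limma. At an unadjusted p under 0.05, 1 and 2 were higher and 4 and 2 lower, beside 10.1% higher and 12.4% lower of all probe sets. The 3 molt genes with the smallest p did not move one way. The fibrillin-related gene fbn-1 read 4.60 to 5.69 in controls and 6.07, 6.30 and 6.37 in exposed 1, 2 and 3 (log2 change 1.21, adjusted p = 0.0717, limma). The genes mlt-9 and mlt-10 had log2 changes of -1.75 and -2.04 (adjusted p = 0.0718 and 0.0885, limma), and mlt-10 read 7.02 to 7.32 in controls and 4.74, 6.46 and 4.07 in exposed 1, 2 and 3. Whether the worms of exposed 2 differed in stage was not tested.

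**Figure D2:**
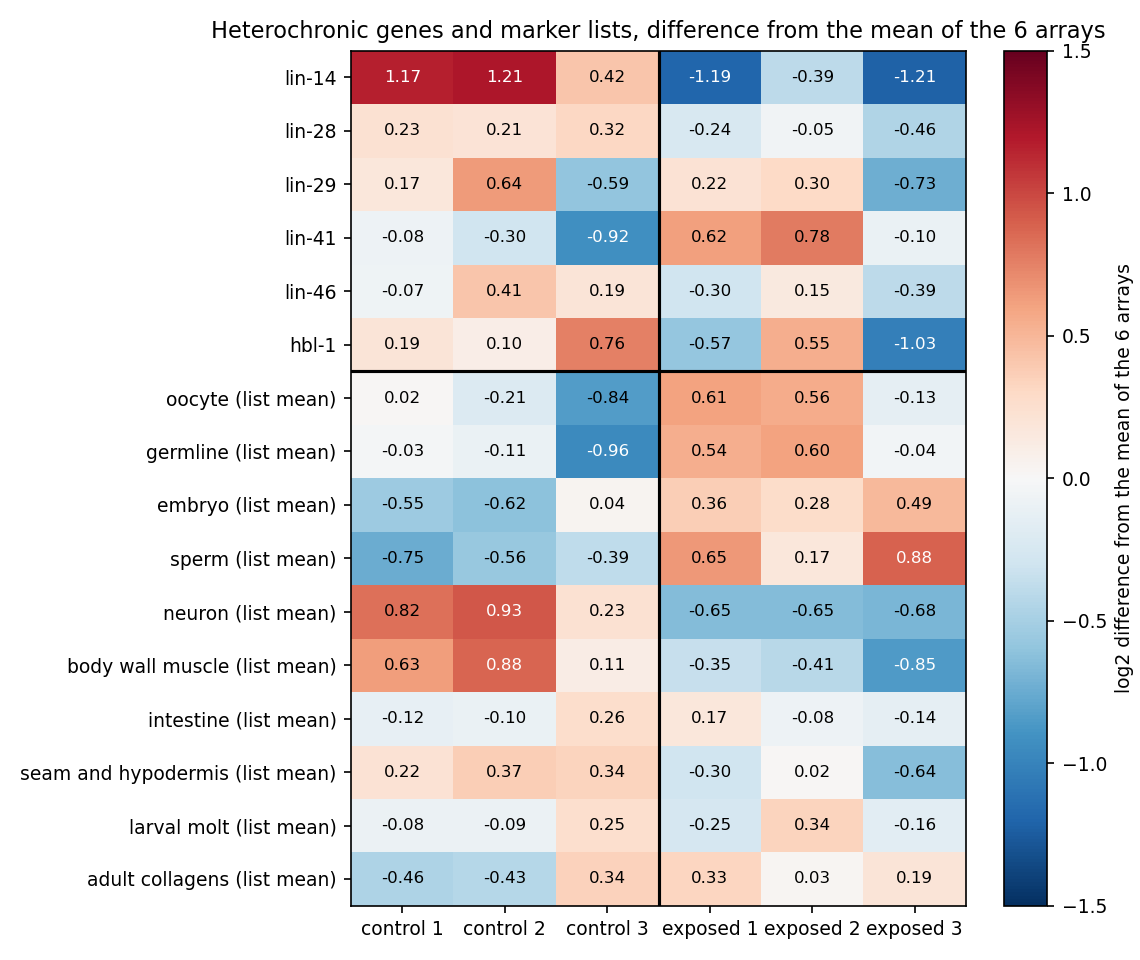
Log2 difference of each array from the mean of the 6 arrays, for the 6 heterochronic genes (upper block) and for the mean of each marker list (lower block), red above and blue below the mean. The lin-41 row is lowest in control 3 and highest in exposed 1 and 2, as are the oocyte and germline rows, and hbl-1 is above its mean in exposed 2 (0.55) and below it in exposed 1 and 3 (-0.57 and -1.03).

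Of the other genes of the pathway, 2 passed. The lists held 51 genes beside the 6, of which 46 were measured: 1 was higher, 1 lower and 44 did not pass, beside 1.06% and 2.6% of all probe sets. Their median log2 change was 0.07, close to the 0.05 of all probe sets. The timing microRNA genes lin-4, let-7, mir-48, mir-84 and mir-241 matched no probe set by symbol and are not analysed here.

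The lower one was alg-1, an Argonaute protein that carries microRNAs. It read 8.17, 7.83 and 7.999 in controls and 7.10, 6.88 and 6.56 in exposed arrays, with separate groups, and fell by 1.15 on the log2 scale (2.22-fold lower, adjusted p = 0.0337, limma). The call was lost with equal array medians (adjusted p = 0.0748) and without control 1, control 2, exposed 1, exposed 2 or exposed 3 (adjusted p from 0.0690 to 0.127), always in the same direction. Its close paralog alg-2 read 5.03 to 5.19 in controls and 5.64 to 5.73 in exposed arrays, also with separate groups but higher (log2 change 0.56, adjusted p = 0.103, limma). The genes are similar in sequence, and whether their probes read both transcripts was not tested. Of the 10 genes of the microRNA machinery 1 was lower, 0 higher and 9 did not pass, with a median of 0.29. The nuclear microRNA-processing enzyme gene drsh-1 (Drosha) was at a log2 change of 0.53 (adjusted p = 0.191, limma).

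None of the 20 other heterochronic regulators passed in limma. At an unadjusted p under 0.05, 1 was higher and 3 were lower, beside 10.1% and 12.4% of all probe sets. The median log2 change was -0.30 with 14 of 20 below 0, beside 44.7% of all probe sets. The Timeless homolog gene tim-1 had the smallest p, from 4.96 to 5.43 in controls and 5.91 to 6.32 in exposed arrays (log2 change 0.93, adjusted p = 0.0564, limma), and it passed in 3 of 16 alternatives. The casein kinase gene kin-20, the zinc finger gene somi-1 and the nuclear receptor gene daf-12 had log2 changes of -0.60, -0.83 and -0.60. Their adjusted p-values in limma were 0.132, 0.0871 and 0.157. Their groups were separate, as downwards for 13.5% of all probe sets. The Period homolog gene lin-42, whose transcript cycles with the molts, read 4.14, 4.46 and 5.39 in controls and 3.89, 4.72 and 3.27 in exposed arrays. As for hbl-1, control 3 and exposed 2 were the highest of their groups for lin-42 (log2 change -0.70, adjusted p = 0.393, limma), and the change was 0.0020 without both arrays numbered 3.

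**Figure D3:**
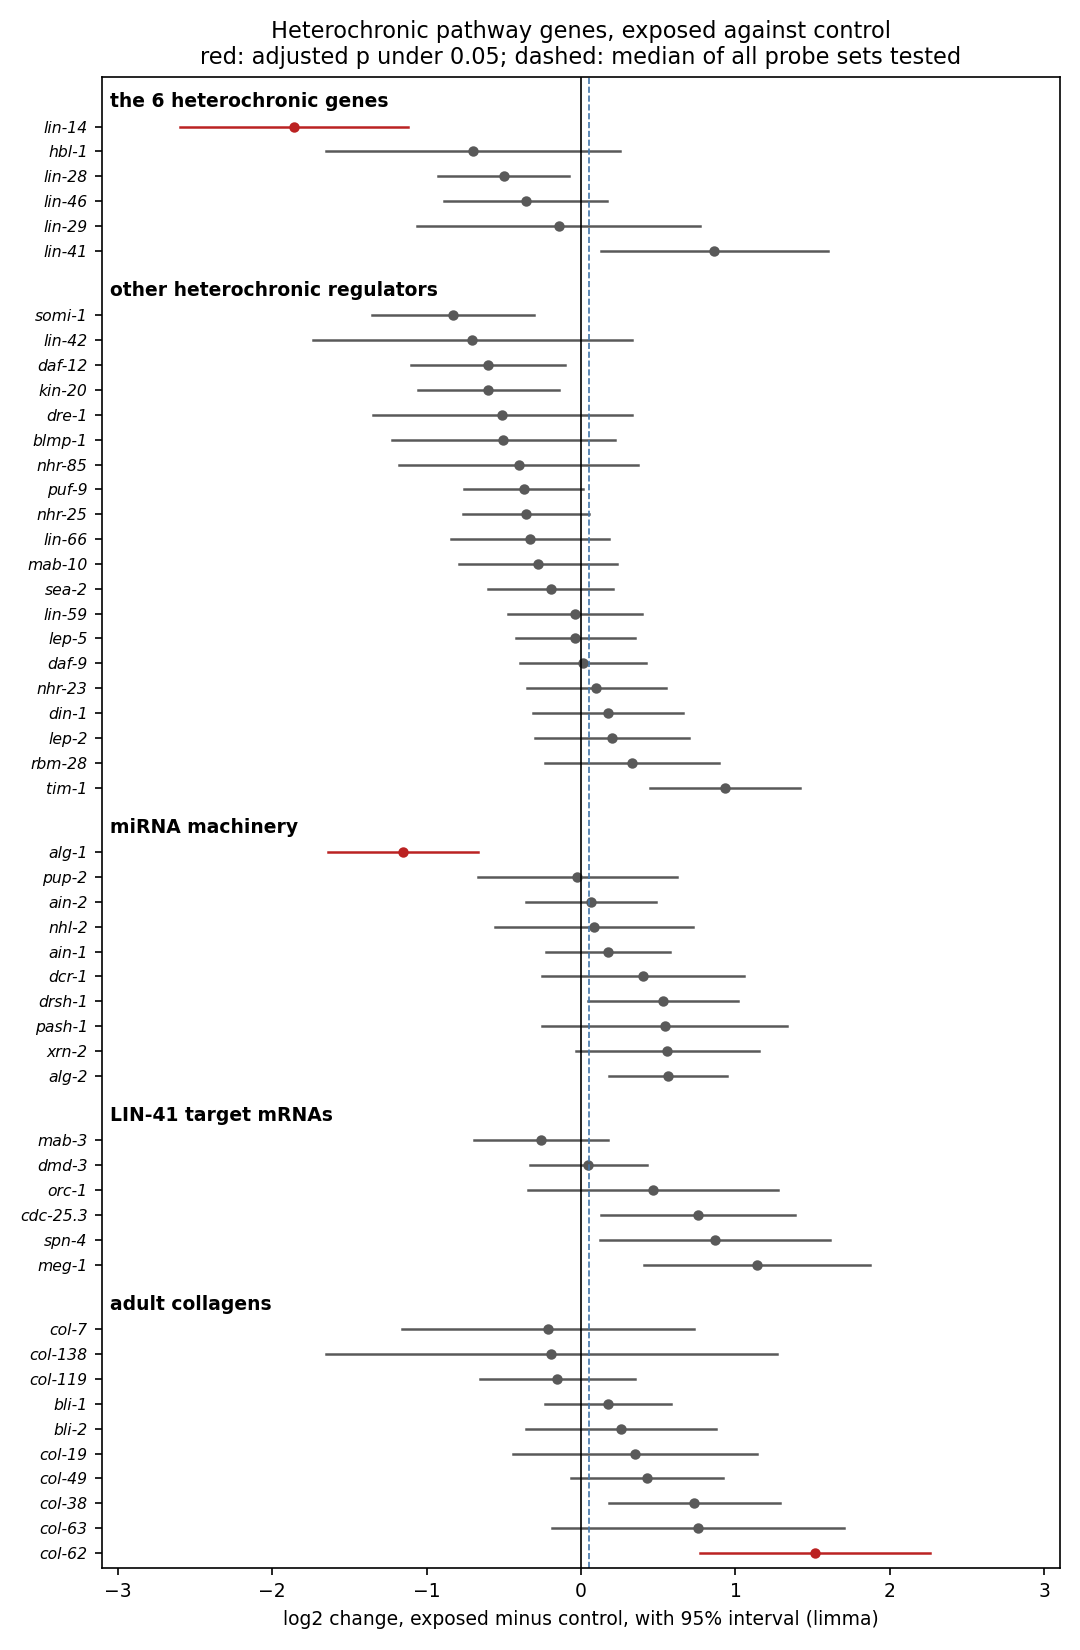
Log2 change, exposed minus control, with its 95% interval (limma, n = 3 per group) for the 6 heterochronic genes and the other measured pathway genes, grouped by list; red marks an adjusted p under 0.05 and the dashed line the median of all probe sets (0.05). The genes lin-14, alg-1 and col-62 are marked, at -1.86, -1.15 and 1.51.

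Genes acted on by the last steps of the pathway were read as well. Of 7 mRNAs beside lin-29 that LIN-41 is known to act on, 0 passed in limma. At an unadjusted p under 0.05, 3 were higher and 0 lower, beside 10.1% and 12.4% of all probe sets. Those 3, spn-4, cdc-25.3 and meg-1, are maternal or germline mRNAs. Their log2 changes were 0.87, 0.76 and 1.14 (adjusted p = 0.166, 0.158 and 0.0908, limma), beside the oocyte median of 0.85. Their groups were separate, as upwards for 14.6% of all probe sets. The LIN-29 cofactor gene mab-10 had a control mean of 4.49 and an exposed mean of 4.21 (adjusted p = 0.496, limma). Of 10 adult collagens, which form the adult cuticle, 1 was higher, 0 lower and 9 did not pass, with a median log2 change of 0.31. The higher one, col-62, read 2.29 to 2.43 in controls and 4.57, 3.29 and 3.76 in exposed arrays (log2 change 1.51, adjusted p = 0.0496, limma). Its control values lie well below the array medians and no detection calls were used, so no fold is given. Its call was lost in 11 of the 15 alternatives that kept it, with adjusted p-values up to 0.157, among them each single array left out but exposed 2. The classic LIN-29 target col-19 read 7.31, 6.76 and 8.13 in controls and 7.91, 7.64 and 7.70 in exposed arrays, with overlapping groups (log2 change 0.35, adjusted p = 0.586, limma). The larval collagen col-17, which LIN-29 is known to repress, was at 2.08 to 2.67 in controls and 2.68 to 3.36 in exposed arrays (log2 change 0.80, adjusted p = 0.135, limma). These values too lie below the array medians, and the groups nearly touched, so they are no measure of LIN-29 activity.

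Genes with the most similar pattern were sought for each of the 6, by Pearson correlation over the 6 arrays among probe sets of 1 gene at or above the median level whose SD over the arrays was at least 0.5 times that of the gene. With 4186 to 12235 candidates and 6 arrays in 2 groups, high values are found for any gene, so they are given as a description. For lin-14 they were gfrl-1, Y106G6G.2 and unc-115, an actin-binding protein of neurons (r of 0.997 each, of 4186 candidates). Of these, unc-115 read 7.55 to 8.15 in controls and 6.59 to 7.06 in exposed arrays, a log2 change of -1.17 (adjusted p = 0.0458, limma). For lin-28 they were the aquaporin gene aqp-2, the histone demethylase gene jmjd-3.1 and F09C6.3 (r of 0.995 to 0.996), and for lin-46 they were F48F7.5, H14A12.5 and ZK792.7 (r of 0.979 to 0.989). For hbl-1 they were clc-8, lpr-6 and cutl-28 (r of 0.992 to 0.995). All 3 shared the high value in exposed 2, as for lpr-6, a lipocalin-related gene, at 4.95, 6.53 and 4.22 in exposed 1, 2 and 3. For lin-41 they were the DNA primase subunit gene pri-2, sel-2 and T24C4.5 (r of 0.998 to 0.999), and for lin-29 they were dmsr-4, tat-1 and F25B5.6 (r of 0.986 to 0.990), for which array 3 was the lowest of both groups.

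**Figure D4:**
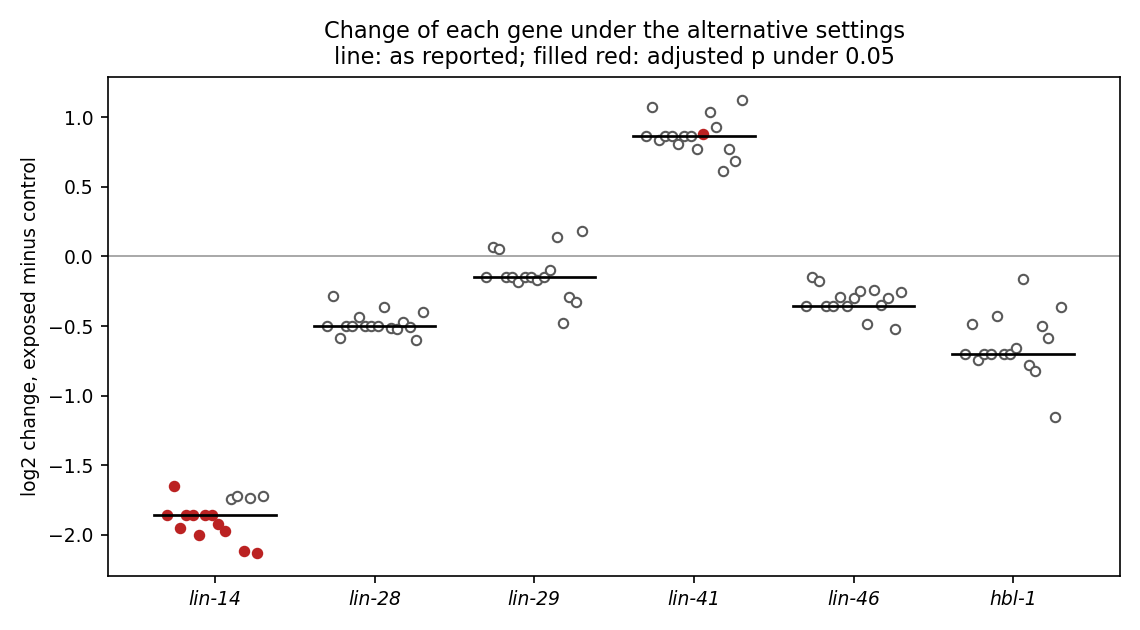
Log2 change, exposed minus control, of each of the 6 heterochronic genes as reported (black line) and under each alternative setting (points; filled red where the adjusted p is under 0.05). The lin-14 points stay between -2.13 and -1.65, and lin-29 is the 1 gene with points on both sides of 0.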

How the data were processed

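RNA was amplified with a NuGEN kit and measured on 1-colour Affymetrix arrays, per the labels' protocols. The authors deposited log2 expression values made with RMA (background correction, quantile normalization between arrays, probe summary) in Affymetrix Expression Console, as the submitters' processing notes state. Its version is not given in the sources used here, nor is a genome build, and no coordinates are printed. Raw scans and detection calls were not used, and the number of arrays limits the precision.

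Of 29317 probe sets, the 26192 with a gene in the platform table were fitted as deposited with limma 3.58.1 (R 4.3.3; lmFit, eBayes), exposed minus control (two-sided), adjusting p-values over all of them by Benjamini-Hochberg, threshold 0.05; 592 of them carry several symbols and name no gene. An exact permutation test of 3 against 3 arrays has a smallest possible p of 0.1 and was left out. RefSeq (WBcel235) served for names and overlapping genes. Genes named are the 6, list genes past the threshold or with the smallest p of a list, fixed pathway genes, and the most similar genes. The genes vit-2, vit-5, vit-6, F02E9.1, hmg-12 and the T25C12 genes were added by function or place. The genes perm-2, perm-4, unc-119, snb-1 and wrt-2 were added to show the spread within their lists. The genes and lists were chosen with earlier results of these data known. The procedure was tested on simulated data. There were 16 alternatives: a replicate block, 2 scalings, 2 prior variances, array weights, 2 choices of probe sets, averaging controls 2 and 3 (the source label of control 3 carries the number 2), and arrays left out.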

Additional observations from a re-analysis of the deposited data

How the results depend on the processing

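The direction of lin-14, lin-28, lin-41, lin-46 and hbl-1 was the same under all 16 alternatives (15 for lin-46). That of lin-29 (-0.15) turned to 0.068 with equal array medians, 0.054 after a second quantile normalization, 0.14 without control 2 and 0.18 without exposed 3 (-0.48 to 0.18 with single arrays left out), and that of lin-42 to 0.0020 without both arrays numbered 3. The number of the 6 genes called was 1, with a range of 0 to 1 when single arrays were left out, and 2 without both arrays numbered 3 (lin-14 and lin-41). The number of other pathway genes called was 2. It was 1 with robust eBayes, without dim probe sets, with all probe sets tested and with controls 2 and 3 averaged, 7 with array weights, 3 without both arrays numbered 3 (1 higher and 2 lower), and 0 to 2 with single arrays left out. The split of 1 higher and 1 lower became 2 higher and 0 lower with equal array medians. Over all probe sets the count was 959, with 3473 under array weights, 2317 without both arrays numbered 3, and 49 to 1996 with single arrays left out (66 without control 1, 53 without control 2, 1996 without control 3, 49 without exposed 1, 818 without exposed 2 and 289 without exposed 3). Fewer arrays enter the fits that leave arrays out; the cause of the other differences was not tested. With the replicate number as a block, 978 probe sets were called and 1 of the 6 genes (lin-14, adjusted p = 0.0307, limma). The genes col-62 and ifb-2 lost their calls (adjusted p = 0.0530 and 0.0505, limma), as did 1 of the 4 sperm and 1 of the 6 neuron genes. In this fit meg-1 passed (adjusted p = 0.0398), and lin-41 was at an adjusted p of 0.0623 in limma. Deviations from the group means correlated at 0.14, 0.08 and 0.25 for arrays numbered 1, 2 and 3, and control 2 correlated best with exposed 1, so the numbers were not taken as pairs. Differences of lin-46, col-62 and other dim probe sets are limited by their low signal, and 3 arrays per group leave 95% intervals of about 1 log2 unit to either side for hbl-1 and lin-29.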

Other observations

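Markers of embryos, sperm and intestine were read as well, beside all probe sets, of which 1.06% passed as higher and 2.6% as lower. Of 12 embryo genes 1 was higher and 0 lower in limma, with a median log2 change of 0.76. The higher one was vet-6, an early embryonic transcript, at 5.79 to 6.01 in controls and 7.78 to 8.04 in exposed arrays (adjusted p = 0.0064, limma), and it passed in all 16 alternatives. Of 11 sperm genes 4 were higher and 0 lower, with a median of 1.14. The 4 were gsp-3, nspd-1, nspd-10 and ssp-34, and 0 of these calls were kept without control 1, control 2, exposed 1 or exposed 3. The call of gsp-3 was lost in 12 of its 15 alternatives (adjusted p up to 0.140) and that of nspd-1 in 6 of 16 (up to 0.142), while nspd-10 and ssp-34 lost theirs in 4 each. Of 9 intestine genes 0 were higher and 1 was lower, with a median of 0.06, close to the 0.05 of all probe sets. That gene, ifb-2, an intermediate filament of the gut lining, read 8.37 to 8.87 in controls and 7.42 to 7.61 in exposed arrays (adjusted p = 0.0295, limma), and it lost its call in 7 of the 16 alternatives. These were the replicate block (adjusted p = 0.0505), equal array medians (0.0534), and the fits without control 1, control 2, exposed 1, exposed 2 or exposed 3 (0.0644 to 0.120).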
